A study of Mus musculus with 6 samples.

Results

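The genes described here encode secreted ligands, receptors and targets of the activin and transforming growth factor beta (TGF-beta) family, and were measured in colonies grown from mouse pancreatic cells. They are Inhba, Inhbb and Tgfb2 (ligands), Tgfbr1 and Acvr1b (receptors) and Id1 and Id3 (target genes), chosen by gene symbol. All 7 were found, of 11164 genes in the expression table, and each had 1 row with a value in all 6 libraries. The symbols were proposed with earlier results of these data known.

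The colonies came from adult C57Bl/6 mice of 2 to 4 months. Pancreas cells with high CD133 and low CD71 on their surface, a fraction described as progenitor-enriched, were isolated by flow cytometry and exposed to lentivirus overnight. Control colonies carried a single shRNA with no mammalian target. Glis3 knockdown colonies carried a pool of 5 shRNA clones against Glis3, which encodes a Krüppel-like zinc finger transcription factor, and CD133 knockdown colonies a pool of 5 clones against the membrane glycoprotein CD133, encoded by Prom1. The difference between a single shRNA and a pool of 5 was shared by both comparisons with control. All 3 groups were selected with puromycin and cultured for 3 weeks in a semi-solid medium of methylcellulose and Matrigel with serum, conditioned medium, the Wnt signal enhancer RSPO1, exendin-4, nicotinamide and activin B. Activin B, the protein made from Inhbb, was therefore supplied to control and knockdown colonies alike. Each group had 2 libraries, numbered 1 and 3. Whether the libraries of a group stem from different mice or cultures is not stated in the labels. P-values therefore measure only the spread between libraries, which may be technical.

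Activins are dimers of inhibin beta subunits: Inhba encodes the subunit of activin A and Inhbb that of activin B. An activin or TGF-beta ligand joins a type II receptor to a type I receptor kinase, such as Acvr1b for activin and Tgfbr1 for TGF-beta. Both kinases phosphorylate Smad2 and Smad3, which enter the nucleus with Smad4. Bone morphogenetic proteins (BMPs) use other type I receptors and Smads, and the Id genes, which encode inhibitors of basic helix-loop-helix transcription factors, are classic BMP targets. In the pancreas, activin signalling is known for its part in endocrine development.

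Promoter sequences are shown for Inhba, Inhbb and Id3, because these genes had the largest changes among the 7 in both knockdowns. Each is the stretch of 250 bases upstream of a RefSeq transcription start in GRCm38.p6, printed 5′ to 3′ on the strand of the gene, with motif matches in capitals. The Inhba window is chr13:16011601-16011850 (plus strand), the Inhbb window chr1:119422249-119422498 (minus strand) and the Id3 window chr4:136143572-136143821 (plus strand). In the GENCODE M21 annotation Id3 spans chr4:136143497-136145755, so its window lies inside the gene as annotated there. The RefSeq start used for Id3 is thus downstream of the GENCODE start.
Inhba: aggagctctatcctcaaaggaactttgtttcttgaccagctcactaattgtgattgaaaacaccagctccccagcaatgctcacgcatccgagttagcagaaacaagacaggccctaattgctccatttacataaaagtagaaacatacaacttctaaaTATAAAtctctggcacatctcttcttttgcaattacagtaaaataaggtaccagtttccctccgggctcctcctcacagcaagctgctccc
Inhbb: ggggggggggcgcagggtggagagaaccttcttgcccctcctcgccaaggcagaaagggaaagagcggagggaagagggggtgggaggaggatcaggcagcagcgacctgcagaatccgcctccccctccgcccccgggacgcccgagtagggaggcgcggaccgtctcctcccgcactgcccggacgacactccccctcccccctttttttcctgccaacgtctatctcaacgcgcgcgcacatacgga
Id3: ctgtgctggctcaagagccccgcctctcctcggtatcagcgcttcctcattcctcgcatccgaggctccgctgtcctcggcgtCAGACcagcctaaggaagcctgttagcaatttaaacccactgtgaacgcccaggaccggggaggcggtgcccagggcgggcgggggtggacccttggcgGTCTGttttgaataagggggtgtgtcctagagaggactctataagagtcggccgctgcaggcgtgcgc

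The capitals mark a match to TATAAA, the TATA box sequence, in Inhba at bases -91 to -86 from the RefSeq start. Whether it serves as a TATA box there was not tested. In Id3 they mark CAGAC, a core sequence bound by Smads, at bases -167 to -163 and, as its complement on the opposite strand, at bases -68 to -64. Of 7 motifs searched on both strands, no match lay in the Inhbb window. The other 5 were the GC-rich Smad element GGCGCC, TGGGGGGT (the core of the Glis binding motif), the cAMP response element TGACGTCA, the AP-1 element TGAGTCA and the E-box CACGTG. Among 32851 RefSeq promoters, CAGAC was found in 42.2%, TATAAA in 12.4%, GGCGCC in 9.6%, CACGTG in 6.0%, TGAGTCA in 4.5%, TGACGTCA in 1.5% and TGGGGGGT in 1.4%. Matches are a description of these windows and not measured binding sites. The Inhba window was 43.2% G and C, the Inhbb window 68.0% and the Id3 window 62.8%, against a median of 52.4% over all promoters. Of the 7 genes, 6 had a RefSeq promoter, and Id1 is named only.

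Values were RPKM, in which read counts are divided by gene length and by the size of the library, so that levels can be compared between genes. Depth, estimated from the steps of low values, was 25.7 to 29.2 megareads per library, and the RPKM sums were 267688 to 279122. The targeted genes followed the labels. Glis3 was at 26.05 and 24.22 RPKM in the control libraries, 13.31 and 11.96 in the Glis3 knockdown and 24.75 and 24.19 in the CD133 knockdown. Prom1 was at 191.25 and 203.42 RPKM in the control, 220.99 and 201.59 in the Glis3 knockdown and 88.03 and 96.00 in the CD133 knockdown. Of 13 markers of duct and colony epithelium, 12 were in the table, with summed levels of 9863 to 10456 RPKM in the control, 7851 to 9198 in the Glis3 knockdown and 7889 to 8194 in the CD133 knockdown. Most of the control sum was Spp1 (osteopontin), at 6490 to 6733 RPKM there, 4168 to 5212 in the Glis3 knockdown and 3127 to 4202 in the CD133 knockdown. Without Spp1, left out after its values were seen, the other 11 markers summed to 3373 to 3723, 3683 to 3986 and 3993 to 4761 RPKM in the same order. That sum overlapped the control in the Glis3 knockdown and lay above it in the CD133 knockdown, and the keratin gene Krt19 stood at 136% and 159% of control. For acinar cells 1 of 10 markers (Cela1, at most 1.06 RPKM) was in the table, for endothelial cells 0 of 7 and for mesenchymal cells 1 of 12 (Fn1). Endocrine markers, 7 of 10 in the table, summed to 5.01 to 11.5 RPKM in the control, 8.65 to 15.7 in the Glis3 knockdown and 1.72 to 4.13 in the CD133 knockdown, and Ppy was listed at 0 in 1 Glis3 and both CD133 knockdown libraries. Immune markers, 2 of 9 in the table (Cd68 and Cd14), summed to 401 to 428 RPKM, 299 to 372 and 325 to 379 in the same order of groups. Cd14 made up nearly all of that sum, and Cd68 stood at 109% and 104% of control. Spp1 and Cd14 were thus lower in both knockdowns than in control, as were the activin subunits described next, and their part in those results was not tested. In bulk libraries, fewer cells of a type and less RNA per cell cannot be told apart.

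Both activin subunit genes fell in both knockdowns. Inhba, at chr13:16011851-16031621 on the plus strand (GRCm38), was at 24.22 and 19.97 RPKM in the control libraries, 9.56 and 10.08 in the Glis3 knockdown and 12.33 and 13.08 in the CD133 knockdown. The 3 groups did not overlap, with the Glis3 knockdown lowest and the control highest. Mean levels were 22.1 ± 3.01 RPKM in control, 9.82 ± 0.368 in the Glis3 knockdown and 12.7 ± 0.530 in the CD133 knockdown (SD, n = 2 each), which placed Inhba above 77.1% of the table's genes in control. The change from control was -1.09 on the log2(RPKM + 1) scale (95% interval -1.31 to -0.87, adjusted p = 0.00436) in the Glis3 knockdown. With CD133 shRNAs it was -0.75 (-0.97 to -0.53, adjusted p = 0.0125). The level thus stood at 44.4% and 57.5% of the control mean. Among 10829 genes tested, the Inhba change ranked 52nd from the lowest in the Glis3 knockdown and 79th in the CD133 knockdown. The Glis3 call held in each of 16 alternative analyses, whereas the CD133 call was lost without control library 1, control library 3 or CD133 library 1 (adjusted p up to 0.0833).

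Inhbb, the gene of the subunit of the activin supplied in the medium, lies at chr1:119415465-119422248 on the minus strand. Its level was 15.78 and 13.51 RPKM in the control libraries, 6.41 and 5.05 in the Glis3 knockdown and 5.68 and 8.61 in the CD133 knockdown. All 4 knockdown libraries lay below both controls, while the ranges of the knockdowns overlapped. Group means were 14.6 ± 1.61 RPKM in control, 5.73 ± 0.962 in the Glis3 knockdown and 7.15 ± 2.07 in the CD133 knockdown (SD, n = 2 each). In the Glis3 knockdown Inhbb fell by 1.22 on the log2 scale (interval -1.65 to -0.79, adjusted p = 0.0121), to 39.1% of control, the 28th lowest change of all genes tested. With CD133 shRNAs it fell by 0.96 (interval -1.39 to -0.53, adjusted p = 0.0253), to 48.8% of control, the 30th lowest. Leaving out control library 1 or 3 ended the Glis3 call (adjusted p up to 0.0966). The CD133 call was lost without control library 1, control library 3 or CD133 library 1 and with a replicate block (adjusted p up to 0.141 over these).

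Tgfb2, which encodes a secreted TGF-beta isoform, moved differently in the knockdowns. The gene lies at chr1:186622792-186705989 on the minus strand, and its exons overlap those of Gm29491 on the opposite strand. Since the use of strand in counting is not given in the sources used here, reads of the pair may not be told apart. Tgfb2 was at 5.47 and 5.55 RPKM in the control libraries, 8.59 and 10.68 in the Glis3 knockdown and 4.32 and 4.66 in the CD133 knockdown. The groups did not overlap, and the control lay between the knockdowns. Means were 5.51 ± 0.0566, 9.64 ± 1.48 and 4.49 ± 0.240 RPKM (SD, n = 2 each). In the Glis3 knockdown Tgfb2 rose by 0.70 (interval 0.47 to 0.94, adjusted p = 0.0106), to 174.9% of control. That call was lost without control library 1 or 3 (adjusted p up to 0.0845). The difference of the CD133 knockdown from control was -0.25 (interval -0.48 to -0.01, adjusted p = 0.145) and did not pass the threshold, although it was called without Glis3 library 1.

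**Figure D1:**
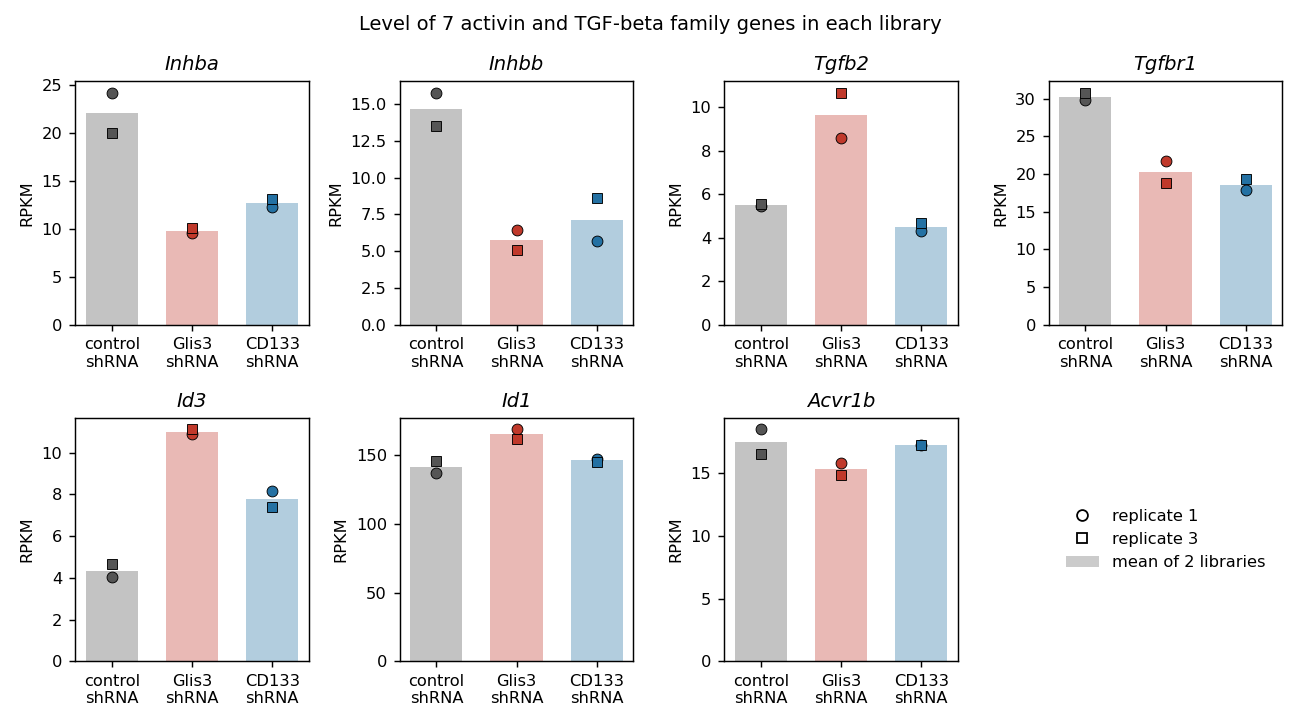
RPKM (vertical axis) of the 7 genes in each of the 6 libraries, with 1 panel per gene. Points are libraries and bars are group means of 2. Inhba and Inhbb have every knockdown point under both controls, Id3 has every knockdown point above them, and Tgfb2 has the Glis3 knockdown highest and the CD133 knockdown lowest.

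Of the type I receptors, Tgfbr1 fell in both knockdowns and Acvr1b passed the threshold in neither. Tgfbr1, the kinase receptor of TGF-beta ligands at chr4:47353222-47414931 (plus strand), was at 29.77 and 30.80 RPKM in the control libraries, 21.70 and 18.75 in the Glis3 knockdown and 17.82 and 19.37 in the CD133 knockdown. Both controls lay above all 4 knockdown libraries, and the knockdowns overlapped. Means were 30.3 ± 0.728, 20.2 ± 2.09 and 18.6 ± 1.10 RPKM (SD, n = 2 each). The log2 change was -0.56 in the Glis3 knockdown (interval -0.75 to -0.37, adjusted p = 0.0108). For the CD133 knockdown it was -0.68 (interval -0.87 to -0.49, adjusted p = 0.0120). Levels stood at 66.8% and 61.4% of control. The Glis3 call was lost without control library 1 or 3, and the CD133 call without control library 1, control library 3 or CD133 library 1 (adjusted p up to 0.0797 and 0.0814).

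Acvr1b, a type I receptor of activin, lies at chr15:101174067-101213684 (plus strand). Its level was 18.49 and 16.54 RPKM in the control, 15.80 and 14.83 in the Glis3 knockdown and 17.21 and 17.23 in the CD133 knockdown. The CD133 knockdown values lay inside the control range, and both Glis3 knockdown values lay just under it. The log2 difference from control was -0.18 in the Glis3 knockdown (interval -0.34 to -0.02, adjusted p = 0.128). In the CD133 knockdown it was -0.02 (interval -0.18 to 0.14, adjusted p = 0.865). These intervals do not reach the -0.56 and -0.68 measured for Tgfbr1, although the difference between the receptors was not tested.

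Id3 rose in both knockdowns, from a low level in control. The gene, at chr4:136143497-136145755 (plus strand), was at 4.03 and 4.67 RPKM in the control libraries, 10.90 and 11.12 in the Glis3 knockdown and 8.15 and 7.40 in the CD133 knockdown. The groups did not overlap, and their order was the reverse of that of Inhba. Means were 4.35 ± 0.453, 11.01 ± 0.156 and 7.78 ± 0.530 RPKM (SD, n = 2 each). Id3 rose by 1.17 in the Glis3 knockdown (interval 0.98 to 1.36, adjusted p = 0.00210), to 253% of control and the 19th highest change of all genes tested. In the CD133 knockdown it rose by 0.72 (interval 0.53 to 0.90, adjusted p = 0.0111), to 179% of control and the 127th highest. With the exon length of the GENCODE M21 annotation and the estimated depth, these values stand for about 138 to 404 reads per library, the lowest of the 7 genes. The Glis3 call held in each of 16 alternative analyses, while the CD133 call was lost without control library 1, control library 3 or CD133 library 1 (adjusted p up to 0.0737).

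Id1, the relative of Id3 at chr2:152736251-152737410 (plus strand), was the most abundant of the 7. It was at 137.06 and 145.74 RPKM in the control libraries, 168.57 and 161.37 in the Glis3 knockdown and 147.30 and 145.11 in the CD133 knockdown. Both Glis3 knockdown libraries lay above the other 4, and the CD133 knockdown overlapped the control. The log2 difference from control was 0.22 in the Glis3 knockdown (interval 0.08 to 0.36, adjusted p = 0.0547). With CD133 shRNAs it was 0.05 (interval -0.09 to 0.19, adjusted p = 0.620). Neither passed the threshold, but the Glis3 difference was called after quantile normalization and with a crossed replicate block (adjusted p down to 0.0219 over all alternatives).

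In the Glis3 knockdown 2 of the 7 genes thus rose (Tgfb2 and Id3), 3 fell (Inhba, Inhbb and Tgfbr1) and 2 were not called. Of all genes tested, 8.39% were called higher and 4.53% lower in that comparison. In the CD133 knockdown 1 rose (Id3), 3 fell (Inhba, Inhbb and Tgfbr1) and 3 were not called, beside 8.16% of all genes called higher and 3.64% lower. After median centring, the calls over all genes were 576 higher and 712 lower in the Glis3 knockdown, in place of 909 and 491, and 559 and 612 in the CD133 knockdown, in place of 884 and 394. The comparisons share their control libraries.

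**Figure D2:**
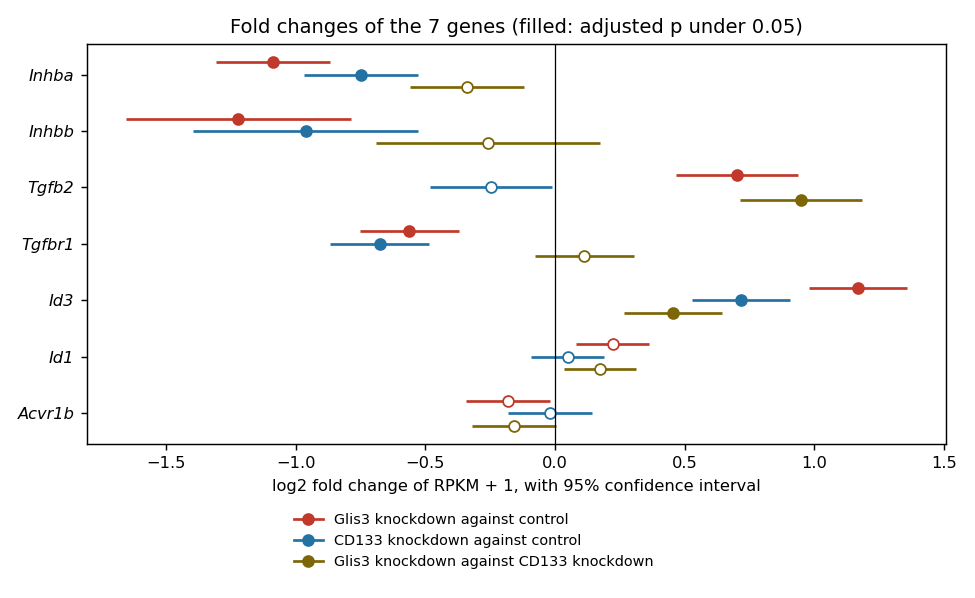
Log2(RPKM + 1) differences (horizontal axis) of the 7 genes in the 3 comparisons between groups. Points are limma estimates and bars 95% confidence intervals. Inhba, Inhbb and Tgfbr1 lie left of 0 and Id3 right of it in both comparisons with control, while Tgfb2 stands apart from 0 in the Glis3 knockdown.

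The knockdowns were then compared with each other. Tgfb2 was 0.95 higher in the Glis3 than in the CD133 knockdown on the log2 scale (interval 0.71 to 1.18, adjusted p = 0.0103), the 25th highest difference of all genes tested. Id3 was 0.45 higher (interval 0.27 to 0.64, adjusted p = 0.0374). The other 5 genes were not called. For Inhba the difference was -0.34 (interval -0.56 to -0.12, adjusted p = 0.0959), with both Glis3 knockdown libraries under both CD133 knockdown libraries. For Inhbb it was -0.26 (interval -0.69 to 0.17, adjusted p = 0.454), so a further fall of Inhbb in either knockdown was not detectable. Tgfbr1 differed by 0.11 (interval -0.08 to 0.30), Id1 by 0.17 (0.03 to 0.31) and Acvr1b by -0.16 (-0.32 to 0.002). With limma, 2 of 7 were thus called higher and 0 lower, and at an unadjusted p under 0.05 the numbers were 3 and 1. Over all genes, 1.61% were called higher and 2.46% lower. The Tgfb2 call was lost without control library 1, control library 3 or CD133 library 1 and in a fit of these 2 groups alone. The Id3 call was lost in 7 of 16 alternative analyses.

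Across the 6 libraries, Inhba and Inhbb varied together, with a Pearson's r of 0.95 on the log2 scale, and Inhba and Id3 in opposite order, with an r of -0.99. Tgfbr1 had an r of 0.91 with Inhbb and -0.14 with Tgfb2. These values describe 3 groups of 2 and are no independent test, since the libraries share their groups. Among 380 named genes with a range of at least 1 on the log2 scale, those most like Inhba were Ffar4 (a fatty acid receptor, r = 0.994), Sgk1 (a kinase, 0.988), Ctsw (a cathepsin, 0.983), Pglyrp3 (a peptidoglycan recognition protein, 0.979) and Adamts9 (a metalloproteinase, 0.979). Ffar4 was at 10.22 and 9.03 RPKM in the control libraries, 3.90 and 3.73 in the Glis3 knockdown and 5.04 and 5.20 in the CD133 knockdown. Those most like Id3 were Cpm (a carboxypeptidase, r = 0.993), Cdc20 (an activator of the anaphase-promoting complex, 0.986), Akr1c19 (an aldo-keto reductase, 0.984), Gipc2 (a PDZ domain protein, 0.983) and Cdca3 (a cell cycle gene, 0.981). Cpm was at 5.72 and 5.79 RPKM in the control, 18.16 and 17.58 in the Glis3 knockdown and 13.44 and 11.01 in the CD133 knockdown.

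The 7 genes were set beside a list of 110 symbols of the family's pathway in 10 roles. In the table were 68, and 66 were tested. In the Glis3 knockdown 6 rose, 18 fell and 42 were not called, with a median log2 change of -0.16 against 0.04 over all genes tested, of which 8.39% were called higher and 4.53% lower. The share of the list that rose was thus near that of all genes. In the CD133 knockdown 4 rose, 8 fell and 54 were not called, with a median of -0.04 against 0.04, beside 8.16% of all genes called higher and 3.64% lower. After median centring the CD133 counts of the whole list were 3 and 13, beside 559 higher and 612 lower over all genes. The Glis3 counts of the list were 5 and 24 with that setting, beside 576 higher and 712 lower over all genes. Without the 7 genes, 4 rose and 15 fell of 59 in the Glis3 knockdown, and 3 rose and 5 fell in the CD133 knockdown. Leaving out a library changed these counts. Without control library 1 or 3, only a small part of the calls in the Glis3 knockdown remained, both in the list and over all genes tested. Without Glis3 library 3, fewer calls likewise remained in the list and over all genes. Inhba, Id3 and Fn1 were called in that knockdown whichever library was left out. With CD133 shRNAs, 0 genes were called without control library 1, control library 3 or CD133 library 1 in limma, where 20, 25 and 22 had an unadjusted p under 0.05. Over all genes tested, the CD133 calls likewise went from 884 higher and 394 lower to 0 and 0 without either control library, and to 18 and 12 without CD133 library 1.

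Of 8 genes tested from the ligand list of the activin and TGF-beta family, 3 rose and 3 fell in the Glis3 knockdown. Inhba, Inhbb and Tgfb2 among these belong to the 7 genes, which were proposed with earlier results of these data known. The others called were Tgfb1, which fell, and the family members Gdf11 and Gdf15, which rose. The shares over all genes were 8.39% higher and 4.53% lower in that comparison. Tgfb1, the gene of another TGF-beta isoform, was at 5.04 and 5.47 RPKM in the control libraries, 3.84 and 2.82 in the Glis3 knockdown and 7.27 and 7.18 in the CD133 knockdown. The order of its groups was thus opposite to that of Tgfb2. The Tgfb1 change was -0.54 in the Glis3 knockdown (adjusted p = 0.0293) and 0.40 in the CD133 knockdown (adjusted p = 0.0667), and the difference between knockdowns was -0.94 (adjusted p = 0.0156). Gdf15, a stress-induced member of the family, was at 11.32 and 8.55 RPKM in the control, 18.61 and 19.35 in the Glis3 knockdown and 12.26 and 14.96 in the CD133 knockdown. It rose by 0.88 in the Glis3 knockdown (adjusted p = 0.0129), and the difference of 0.42 in the CD133 knockdown was not called (adjusted p = 0.0868). Gdf11 rose by 0.37 in the Glis3 knockdown (adjusted p = 0.0362, called in 9 of 15 alternative analyses).

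Of 3 BMP ligand genes tested, Bmp6 rose in both knockdowns. Its level was 6.56 and 7.59 RPKM in the control libraries, 12.92 and 12.07 in the Glis3 knockdown and 10.11 and 9.61 in the CD133 knockdown. The groups did not overlap and stood in the same order as those of Id3. The Bmp6 change was 0.74 in the Glis3 knockdown (adjusted p = 0.00624) and 0.43 in the CD133 knockdown (adjusted p = 0.0233). Bmp4 was at 14.23 and 13.60 RPKM in the control, 12.39 and 10.83 in the Glis3 knockdown and 7.59 and 9.66 in the CD133 knockdown. It fell in the CD133 knockdown (log2 change -0.64, adjusted p = 0.0216), where Bmp7 rose by 0.33 (adjusted p = 0.0499, called in 6 of 15 alternative analyses). Beside these stand 8.39% of all genes called higher in the Glis3 knockdown, and 8.16% higher and 3.64% lower in the CD133 knockdown. Exons of Bmp4 and of Bmp6 overlap those of genes on the opposite strand, as do those of Bmpr1a, Fstl3, Ltbp2, Furin, Tgif2 and Prom1.

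Among 4 type I receptor genes, Bmpr1a, a BMP receptor, was the other besides Tgfbr1 to be called, with -0.22 in the CD133 knockdown (adjusted p = 0.0377). No type II receptor gene was called in limma, of 4 tested, where 1 in the Glis3 knockdown and 0 in the CD133 knockdown had an unadjusted p under 0.05. The most abundant of these were Tgfbr2, the partner of Tgfbr1, with log2 differences of 0.31 (adjusted p = 0.0681) in the Glis3 and 0.18 (adjusted p = 0.232) in the CD133 knockdown, and Bmpr2, with -0.18 (0.422) and -0.14 (0.537). Tgfbr2 was at 22.90 and 24.42 RPKM in the control libraries, 27.44 and 31.73 in the Glis3 knockdown and 28.49 and 25.30 in the CD133 knockdown. All 4 knockdown libraries were above both controls, opposite to Tgfbr1. Of 2 coreceptor genes, Rgmb, a BMP coreceptor, fell in the CD133 knockdown (log2 change -0.34, adjusted p = 0.0315). Among all genes tested, 8.39% were called higher and 4.53% lower in the Glis3 knockdown, and 8.16% and 3.64% in the CD133 knockdown.

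Of 13 extracellular regulators, 3 fell in the Glis3 knockdown and 1 rose in the CD133 knockdown. Calls over all genes were 4.53% lower in the Glis3 knockdown and 8.16% higher in the CD133 knockdown. The 1 rise of 13 was thus near the share of all genes. Fstl3, a secreted activin antagonist, was at 3.75 and 3.66 RPKM in the control libraries, 2.63 and 2.07 in the Glis3 knockdown and 3.16 and 3.26 in the CD133 knockdown. It fell in the Glis3 knockdown (log2 change -0.50, adjusted p = 0.0219), as did Ltbp2, a latent TGF-beta binding protein family member (-0.98, adjusted p = 0.0464, called in 8 of 15 alternative analyses), and Furin, a proprotein convertase that cleaves TGF-beta precursors (-0.29, adjusted p = 0.0447, called in 8 of 16). Itgb6, a subunit of an integrin that activates latent TGF-beta, rose in the CD133 knockdown by 0.51 (adjusted p = 0.0241).

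None of 5 receptor-regulated and common Smad genes was called in limma, where 3 in the Glis3 knockdown and 2 in the CD133 knockdown had an unadjusted p under 0.05. Smad3 and Smad4, the most abundant, differed from control by -0.21 and -0.06 in the Glis3 knockdown and by -0.01 and 0.07 in the CD133 knockdown. Of 12 inhibitory Smads and intracellular inhibitors, 4 fell and 1 rose in the Glis3 knockdown. Over all genes, 4.53% were called lower and 8.39% higher there, so the 1 rise of 12 was near the share of all genes. Pmepa1, a TGF-beta induced inhibitor of Smad signalling, was at 121.82 and 120.19 RPKM in the control libraries, 99.93 and 89.55 in the Glis3 knockdown and 134.48 and 133.18 in the CD133 knockdown. The Glis3 knockdown was lowest and the CD133 knockdown highest, with no overlap. In the Glis3 knockdown the changes were -0.35 for Pmepa1 (adjusted p = 0.0214), -0.31 for the Smad corepressor Ski (adjusted p = 0.0218), -0.34 for its relative Skil (adjusted p = 0.0499, called in 7 of 16 alternative analyses) and -0.29 for Smad6 (adjusted p = 0.0261). The corepressor Tgif2 rose there by 0.35 (adjusted p = 0.0219). Skil also fell in the CD133 knockdown (log2 change -0.41, adjusted p = 0.0325).

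Of 12 other TGF-beta target genes, 7 fell in the Glis3 knockdown and none rose (limma, 1 at an unadjusted p under 0.05), and 1 fell in the CD133 knockdown. The shares over all genes were 4.53% lower and 8.39% higher in the Glis3 knockdown, and 3.64% lower in the CD133 knockdown. Fn1, which encodes fibronectin, was at 112.32 and 111.93 RPKM in the control libraries, 53.48 and 56.31 in the Glis3 knockdown and 84.70 and 87.79 in the CD133 knockdown. The groups did not overlap and stood in the same order as those of Inhba. The Fn1 change was -1.02 in the Glis3 knockdown (adjusted p = 0.000987) and -0.37 in the CD133 knockdown (adjusted p = 0.0159), and the difference between knockdowns was -0.64 (adjusted p = 0.00617). Fn1 was also the 1 of 12 mesenchymal markers in the table, and exons of Apol7d overlap it on the opposite strand. Other falls in the Glis3 knockdown included -0.49 for Pdgfb, a growth factor gene, -0.44 for Junb, an AP-1 subunit gene (called in 9 of 16 alternative analyses), -0.36 for the integrin gene Itga5 and -0.33 for Cdkn2b, a cell cycle inhibitor gene (adjusted p = 0.0152 to 0.0432). Of 3 Id genes, Id3 was the one called.

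**Figure D3:**
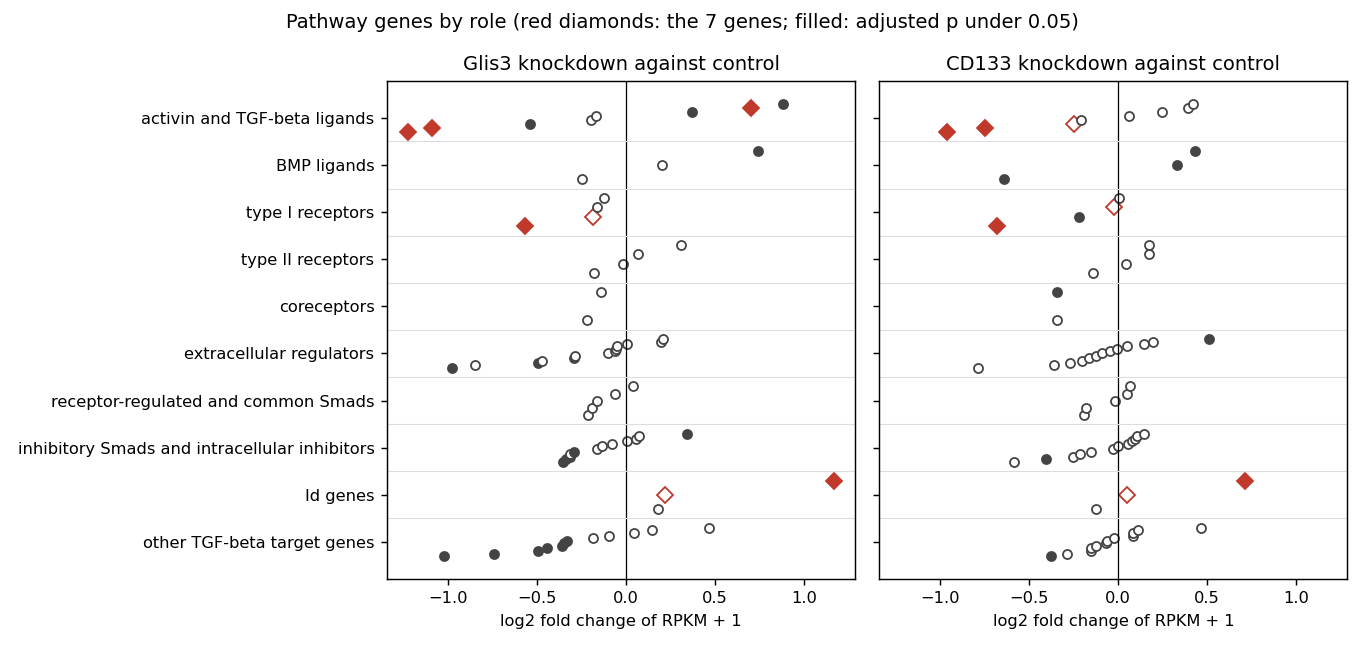
Log2(RPKM + 1) differences from control (axis) of the 66 tested pathway genes, grouped by role, in the Glis3 and CD133 knockdowns. Filled points passed the threshold and red diamonds are the 7 genes. In the role of other TGF-beta targets, 7 of 12 points of the Glis3 knockdown are called and lie under 0, against 1 of the CD133 knockdown.

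Between the knockdowns, 3 pathway genes were higher in the Glis3 knockdown, 9 were lower and 54 were not called, beside 1.61% of all genes called higher and 2.46% lower. Besides Tgfb2 and Id3, the higher gene was Tgif2 (log2 difference 0.60, adjusted p = 0.0123). Among the lower were Tgfb1, Fn1, Pmepa1 (-0.50, adjusted p = 0.0187) and Itga5 (-0.44, adjusted p = 0.0234). A fit of these 2 groups alone called 1 pathway gene, beside 26 higher and 32 lower over all genes.

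**Figure D4:**
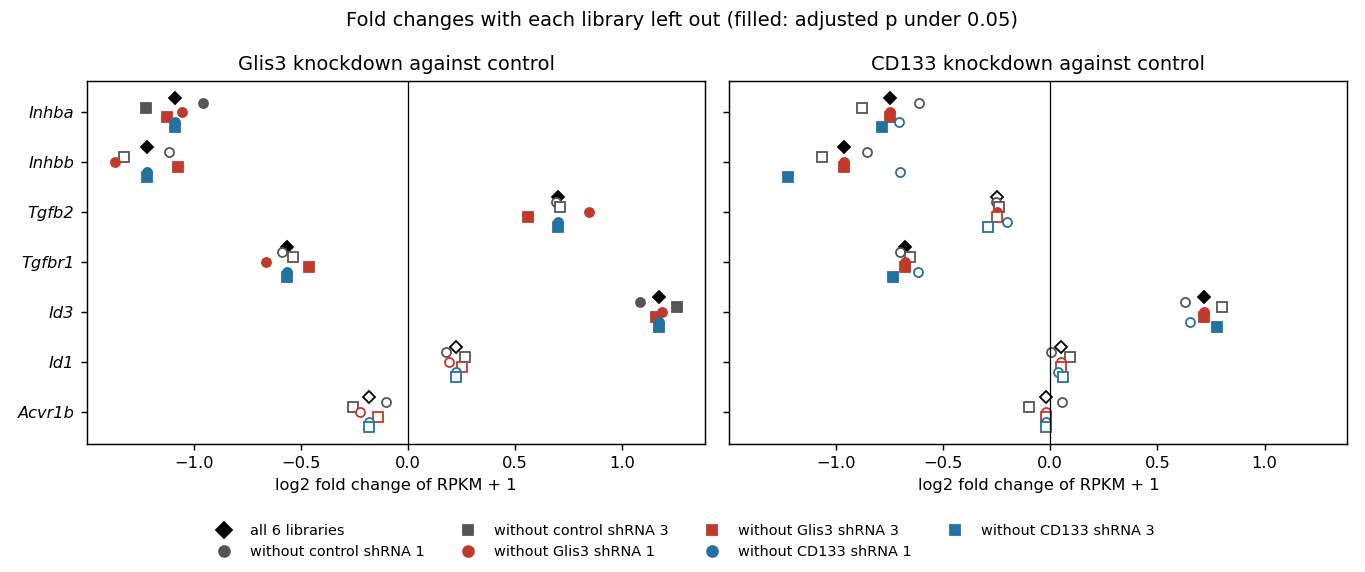
Log2(RPKM + 1) differences of the 7 genes from control with all libraries and with each library left out in turn, for both knockdowns. Filled points passed the threshold. Estimates for Inhba, Inhbb, Tgfbr1 and Id3 keep their side of 0 in every fit shown, while calls in the CD133 knockdown are lost without control library 1, control library 3 or CD133 library 1.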

How the data were processed

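Poly(A)-selected, stranded RNA-seq libraries were made from 6 colony samples, 2 per group. The authors deposited RPKM values with 2 decimals for 11164 genes, each at 1.00 RPKM or more in at least 1 library, so genes under that level have no value. TopHat2, HTSeq, bcl2fastq 2.18.0.12 and the build mm10 stand in the submitters' processing notes. Not given in the sources used here are their order, the annotation, the library total and whether counting used strand.

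Columns were matched to samples by the name in each sample's description. Depth was estimated by scanning 3 to 40 megareads for the value at which low RPKM values (under 3, transcripts under 1200 bases) were whole reads. At the best depths 54.7% to 62.6% were whole within 0.15 read, against 30% by chance, so reads were not recovered and no count test was run.

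Values were analysed as log2(RPKM + 1) with limma 3.58.1 in R 4.3.3 for 10829 genes averaging at least 1 RPKM. The model had 3 group means, empirical Bayes moderation with a variance trend, and 3 residual and 3.69 prior degrees of freedom. Tests were two-sided, with Benjamini-Hochberg adjustment across every tested gene of a comparison. Genes were called at an adjusted p under 0.05. The scale understates changes of low genes. The fit was tested on simulated data.

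The members and lists were chosen with earlier results of these data known. Named were the 7 genes, both shRNA targets, pathway genes called against control (or the 2 most abundant of a role with none) and the 5 genes most correlated with Inhba and with Id3. Some genes picked by this rule are not reported here. Gene positions come from GENCODE M21 (GRCm38, the assembly of mm10) and promoters from RefSeq. Alternatives covered the pseudocount, the filter, scaling, the variance trend, replicate blocks, a fit of the compared groups and leaving out each library.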

Additional observations from a re-analysis of the deposited data

How the results depend on the processing

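Each result was recomputed in 16 alternative analyses. Leaving out each library in turn gave 2 to 5 of the 7 genes called in the Glis3 knockdown (5 with all libraries), 0 to 5 in the CD133 knockdown (4) and 0 to 2 between knockdowns (2). For the pathway list it gave 3 to 25 (24), 0 to 17 (12) and 1 to 13 (12). A fit of the compared groups alone called 0 of the 7 genes and 1 pathway gene between knockdowns, with 5 of the 7 at an unadjusted p under 0.05. Over all genes, that fit called 26 higher and 32 lower. Where leaving out a library left 1 in a group, that library was assumed to vary like the other groups. Direction changed for Id1 in the CD133 knockdown with median centring (-0.0044), Acvr1b (-0.097 to 0.055) and Glis3 (-0.087 to 0.014) in the CD133 knockdown, and Inhbb between knockdowns (-0.52 to 0.0034), the last 3 over the left-out libraries. With all libraries the Inhbb difference was -0.26 and was not called. The cause was not tested. Of the 7 genes, Id3 had the fewest estimated reads, with 138 in its lowest library. Of the pathway genes named, Fstl3 had 115 and Ltbp2 128.

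Deviations of same-numbered libraries from their group means correlated at -0.372 (control and Glis3), -0.428 (control and CD133) and 0.0322 (Glis3 and CD133) across genes. Same-numbered control and knockdown libraries thus tended to deviate in opposite directions. The labels state no pairing, and these values cannot decide whether one exists. With a replicate block, 5, 3 and 1 of the 7 genes were called in the Glis3, CD133 and between-knockdown comparisons, and 12, 4 and 4 pathway genes. Over all genes, that block called 410 higher and 198 lower, 231 and 104, and 28 and 51, in the same order. The crossed pairing, chosen after seeing the data, called 20 pathway genes in the CD133 knockdown, beside 995 higher and 461 lower over all genes.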

Other observations

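The ratio of Inhba to Inhbb RPKM was 1.53 and 1.48 in the control libraries, 1.49 and 2.00 in the Glis3 knockdown and 2.17 and 1.52 in the CD133 knockdown, and the 3 ranges overlapped. The summed RPKM of Inhba and Inhbb was 33.48 in the lower control library, against 15.97 and 15.13 in the Glis3 knockdown and 18.01 and 21.69 in the CD133 knockdown, so that both controls lay above all 4 knockdown libraries.

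Of the TGF-beta isoforms, Tgfb3, named here after its values were seen, was the most abundant. It was at 72.42 and 79.24 RPKM in the control libraries, 71.17 and 63.62 in the Glis3 knockdown and 90.29 and 89.80 in the CD133 knockdown. In limma, neither difference from control was called (-0.17, adjusted p = 0.177 for Glis3, and 0.25, adjusted p = 0.0743 for CD133). Between knockdowns the limma difference was -0.41 (adjusted p = 0.0381), a call lost in a fit of these 2 groups alone. Exons of Gm37804 and Gm48008 overlap those of Tgfb3 on the opposite strand. Tgfb2 stood at no more than 7.55% of Tgfb3 in the control, at 12.1% and 16.8% in the Glis3 knockdown and at 4.78% and 5.19% in the CD133 knockdown. The sum of the 3 isoforms was 82.93 and 90.26 RPKM in the control, 83.6 and 77.12 in the Glis3 knockdown and 101.88 and 101.64 in the CD133 knockdown, where it lay above all other libraries. No test was run on these ratios and sums.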
